A study of Mus musculus with 201 samples.

Results

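The metabotropic glutamate receptor genes *Grm2*, *Grm3*, *Grm4*, *Grm5*, *Grm6*, *Grm7* and *Grm8* were followed through single dentate granule cells (DGCs) of the mouse hippocampus. They were taken as a named list of 7 symbols, and each symbol was found once in all 3 deposited tables, which list between 42774 and 42802 symbols. RNA-seq of single nuclei and of single whole cells was used, and 172 of 201 samples were kept after quality control. FOS+ nuclei (40 of 48 kept, sorted as Prox1+/Fos+) and FOS− nuclei (41 of 48 kept, sorted as Prox1+/Fos-) came from a C57BL/6 mouse after an environment new to the animal (NE), collected 1 h after a 15-min exploration, and the 2 sorts share that exposure. Home-cage (HC) nuclei, 23 of 23 kept, came from a C57BL/6 mouse with no exploration. They were NeuN+/Prox1+, which the paper scored from images of the stained nuclei on the capture chip. Whole cells (WC) were papain-dissociated GFP+ cells of Prox1-GFP mice injected with the seizure-inducing agent PTZ at 50 mg per kg (30 of 35 kept) or with saline (38 of 47 kept) and collected 1 h later. The C57BL/6 mice were stated to be 8-week-old females, and no age was given for the Prox1-GFP mice. Hippocampi of 2 mice were stated to be pooled for each whole-cell treatment, where the series design names a single mouse, and no label ties a nucleus or cell to an animal. Each group was therefore treated as 1 sample, so no difference below carries a test, and intervals cover counting error only.

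Metabotropic glutamate receptors are G-protein-coupled receptors for glutamate, and they fall into 3 groups by sequence and coupling. Group I, represented here by *Grm5*, couples through Gq to phospholipase C and is mostly postsynaptic. Group II (*Grm2* and *Grm3*) and group III (*Grm4*, *Grm6*, *Grm7* and *Grm8*) couple through Gi/o, lower cyclic AMP and are mostly known for restraining transmitter release. In the hippocampus, mGluR2, the product of *Grm2*, is known from mossy fibres, the axons of DGCs, whereas *Grm3* is known from glia as well as neurons and *Grm6* from the ON bipolar cells of the retina.

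Positions are those of the GENCODE annotation of GRCm38, the genome version that the deposited tables are based on. *Grm2* lies on chromosome 9 from 106643095 to 106656082 on the minus strand and spans 12988 bases. *Grm5* lies on chromosome 7 from 87584168 to 88134907 on the plus strand and spans 550740 bases. *Grm7* lies on chromosome 6 from 110645581 to 111567230 on the plus strand, and at 921650 bases it is the longest of the 7. *Grm8* lies on the same chromosome from 27275119 to 28135178 on the minus strand. *Grm3* lies on chromosome 5 from 9485541 to 9725170 and *Grm4* on chromosome 17 from 27422387 to 27521403, both on the minus strand. *Grm6* lies on chromosome 11 from 50850685 to 50866208 on the plus strand.

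The promoters of *Grm2* and *Grm7*, both detected in most of the kept whole cells, are shown. *Grm2* was found in fewer FOS+ than FOS− nuclei, while *Grm7* was found in a similar share of both. Each is the RefSeq sequence of GRCm38.p6 from 250 bases before to 50 bases after an annotated start, written 5′ to 3′ along the gene. Capitals mark the GC box, the letters GGGCGG on either strand, which is bound by Sp1-type factors.
Grm2, chr9:106656060-106656359, minus strand: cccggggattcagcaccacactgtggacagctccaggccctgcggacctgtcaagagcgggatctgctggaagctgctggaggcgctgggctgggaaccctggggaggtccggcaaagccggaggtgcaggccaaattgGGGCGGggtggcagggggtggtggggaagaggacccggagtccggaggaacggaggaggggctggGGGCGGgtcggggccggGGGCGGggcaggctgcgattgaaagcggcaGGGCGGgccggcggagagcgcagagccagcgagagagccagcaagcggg
Grm7, chr6:110645262-110645561, plus strand: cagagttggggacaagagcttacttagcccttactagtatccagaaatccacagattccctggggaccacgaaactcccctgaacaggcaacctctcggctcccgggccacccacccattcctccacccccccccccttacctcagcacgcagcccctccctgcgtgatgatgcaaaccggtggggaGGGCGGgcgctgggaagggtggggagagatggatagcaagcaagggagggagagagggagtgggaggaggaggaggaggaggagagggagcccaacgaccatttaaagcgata

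The *Grm2* window holds 4 GC boxes and is 72% G or C. The *Grm7* window holds 1 and is 61% G or C. A second, overlapping *Grm7* window, from 110645348 to 110645647, also holds 1 and is 66.7% G or C, and is not printed. A GC box was present in 35.7% of 32851 mouse promoter windows of the same length. Neither window holds a cyclic AMP response element (TGACGTCA, in 1.79% of all windows), its shorter form (TGACG, in 20.8%) or an AP-1 motif (TGANTCA, in 7.81%), searched on both strands. The full element contains the shorter form, so their counts overlap. The letter matches are a description of the windows only. Of the 7 genes, 5 had an entry among these windows, and *Grm4* and *Grm5* had none.

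Depth and identity set the precision of every value. Summed expected counts per kept sample ranged from 80096 to 1035170 in FOS+ nuclei, from 63775 to 1060516 in FOS− nuclei, from 107647 to 278779 in HC nuclei, from 67212 to 5129240 in PTZ cells and from 401331 to 2696043 in saline cells. *Prox1*, the transcription factor that marks DGCs, was above 1 transcript-per-million (TPM) in 82.5% of FOS+ and 82.9% of FOS− nuclei, in 60.9% of HC nuclei and in 100% of both whole-cell groups. *Fos* transcript was above 1 TPM in 30% of FOS+ and 7.32% of FOS− nuclei, the sort having been made on FOS protein. Of 6 markers of CA pyramidal or mossy cells, 2 were above 1 TPM in more PTZ than saline cells by 20 percentage points or more (Fibcd1 in 40% against 13.2%, Calb2 in 23.3% against 2.63%) and 1 in fewer (Ociad2 in 20% against 42.1%). Of the 6, 5 were among the 14492 genes counted in 5 or more of these cells. Of those 14492 genes, 3.12% were higher in PTZ by that limit and 4.35% lower. Of 7 granule cell markers, *Prox1* among them, 4 were in a smaller share of PTZ cells and 2 in a larger one. Of the 7, 1 was past the limit, Plk5, in 53.3% of PTZ and 81.6% of saline cells. The summed TPM of the 6 CA pyramidal or mossy cell markers ran from 0 to 1490 in PTZ cells (median 47.5). In saline cells it ran from 0 to 555 (median 2.58). The part of either list in the differences between these groups was not tested. HC nuclei were captured and amplified on the Fluidigm C1 system, while NE nuclei and whole cells were amplified by the Smart-seq2 protocol. The median number of genes above 1 TPM was 3213 in HC nuclei, 6326 in FOS+ nuclei and 6020 in FOS− nuclei. The 3 tables thus differ in preparation, platform or read layout. Values of HC nuclei, NE nuclei and whole cells are therefore set side by side and not compared by a fold.

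*Grm5*, *Grm7* and *Grm2* were the 3 receptor genes with the highest mean levels in each group, and the other 4 were detected in few samples or at low TPM. *Grm5*, whose product mGluR5 is the group I receptor of the list, was above 1 TPM in 65.0% of FOS+ nuclei (95% exact binomial interval 48.3 to 79.4), 87.8% of FOS− nuclei (73.8 to 95.9), 91.3% of HC nuclei (72 to 98.9), 86.7% of PTZ cells (69.3 to 96.2) and 92.1% of saline cells (78.6 to 98.3). *Grm2* was above 1 TPM in 37.5% of FOS+ nuclei (22.7 to 54.2), 63.4% of FOS− nuclei (46.9 to 77.9), 34.8% of HC nuclei (16.4 to 57.3), 80.0% of PTZ cells (61.4 to 92.3) and 97.4% of saline cells (86.2 to 99.9). *Grm7*, a presynaptic group III receptor, was above 1 TPM in 70.0% of FOS+ nuclei (53.5 to 83.4), 73.2% of FOS− nuclei (57.1 to 85.8), 52.2% of HC nuclei (30.6 to 73.2), 56.7% of PTZ cells (37.4 to 74.5) and 78.9% of saline cells (62.7 to 90.4). Ordered by share, *Grm5* led in FOS− and HC nuclei and in PTZ cells, *Grm7* in FOS+ nuclei and *Grm2* in saline cells. The intervals of neighbours in this order overlapped in all 5 groups. In HC nuclei the interval of *Grm2*, which was not next to *Grm5* in the order, lay below that of *Grm5*.

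**Figure D1:**
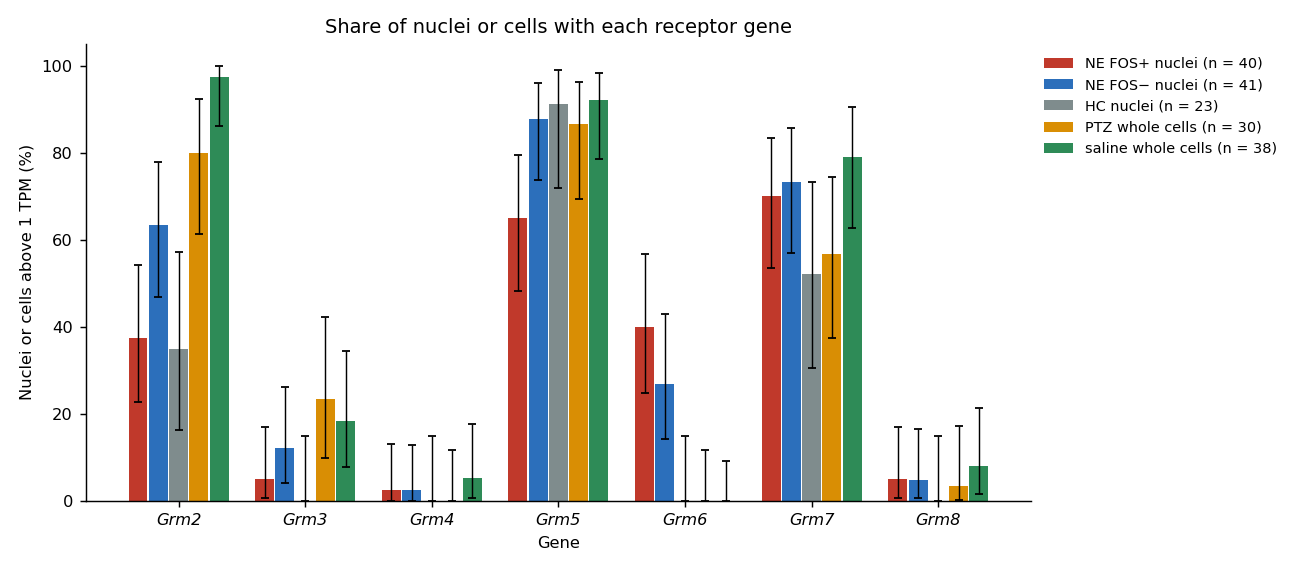
The horizontal axis gives the 7 genes and the vertical axis the percent of kept nuclei or cells above 1 TPM. Bars are the 5 groups and lines their 95% exact binomial intervals. *Grm5* and *Grm7* stand above *Grm3*, *Grm4*, *Grm6* and *Grm8* in every group, as does *Grm2* except in FOS+ nuclei, where *Grm6* reaches 40%, and *Grm6* has bars only in the NE nuclei.

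Levels varied over a wide range among nuclei of 1 group. *Grm2* ran from 0 to 732 TPM in FOS+ nuclei (median 0), from 0 to 518 in FOS− nuclei (median 53.0), from 0 to 553 in HC nuclei (median 0), from 0 to 914 in PTZ cells (median 162) and from 0 to 506.5 in saline cells (median 116). *Grm5* ran from 0 to 434 TPM in FOS+ nuclei (median 15.2), from 0 to 568 in FOS− nuclei (median 76.97), from 0 to 835 in HC nuclei (median 54.5), from 0 to 294 in PTZ cells (median 50.3) and from 0 to 368 in saline cells (median 74.1). *Grm7* ran from 0 to 603 TPM in FOS+ nuclei (median 68.7), from 0 to 980 in FOS− nuclei (median 88.7), from 0 to 1178 in HC nuclei (median 3.44), from 0 to 592 in PTZ cells (median 13.5) and from 0 to 236 in saline cells (median 38.8). The lowest value was 0 for each of these 3 genes in each group, so the groups overlapped for all 3. On the log2(TPM + 1) scale the mean of *Grm2* was 1.81 ± 2.79 (SD, n = 40) in FOS+ and 4.04 ± 3.47 (SD, n = 41) in FOS− nuclei. In HC nuclei it was 2.31 ± 3.47 (SD, n = 23). Among whole cells it was 6.21 ± 3.29 (SD, n = 30) for PTZ and 6.51 ± 1.89 (SD, n = 38) for saline.

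**Figure D2:**
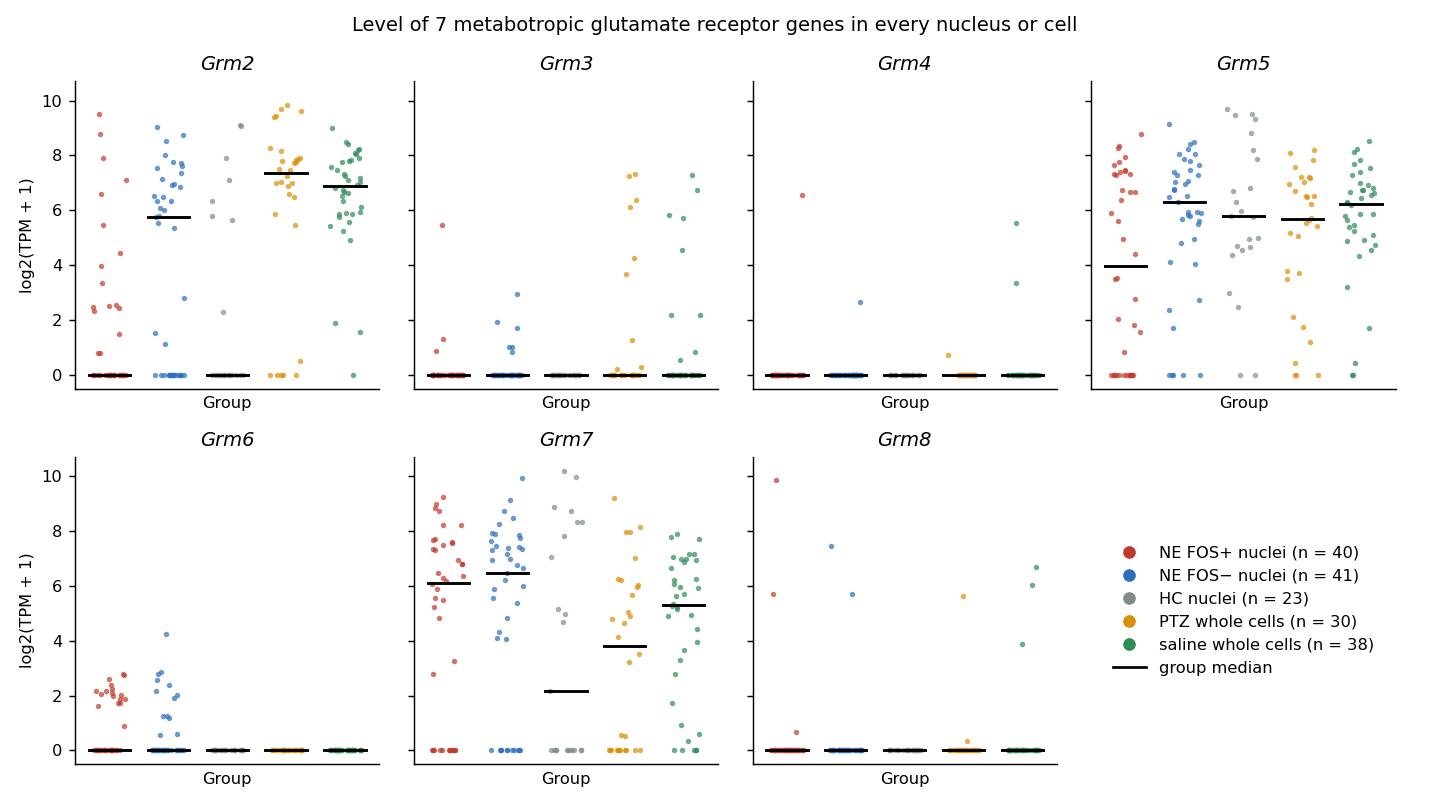
Each panel is 1 gene, the vertical axis is log2(TPM + 1), each point is a kept nucleus or cell and the black line is the group median. The *Grm2* median is at 0 in FOS+ and HC nuclei and at 53.0 TPM in FOS− nuclei, and *Grm4* and *Grm8* show single nuclei or cells far above a median of 0.

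The comparison of FOS+ with FOS− nuclei addresses how granule cells sorted with FOS protein differ from those sorted without it after the same exposure. The paper set aside some FOS+ nuclei that had low *Arc*, *Fos* and *Egr1* RNA and clustered with FOS− nuclei. They carry no label and stayed in the FOS+ group here, so that group is mixed. *Grm2* and *Grm5* were found in fewer FOS+ than FOS− nuclei, *Grm7* was found in a similar share of both, and the other 4 genes stayed within 20 percentage points. A difference of 20 points in the share above 1 TPM was used as the limit of size. Of 16411 genes counted in 5 or more of these nuclei (a rounded count above 0), 3.69% were lower in FOS+ nuclei by that limit and 4.3% were higher. Of the 7 receptor genes 6 passed the same filter, *Grm4* did not, and 2 of the 6 were past the limit, both lower. The median difference was -5.18 points over the 6 and -0.79 points over all genes tested. The receptor genes were chosen with earlier results of these data known, so the values of all genes are a background and not a test.

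*Grm2* was above 1 TPM in 15 of 40 FOS+ nuclei and 26 of 41 FOS− nuclei, a difference of -25.9 points. Among the nuclei above 1 TPM the median was 14.8 TPM in FOS+ and 102 TPM in FOS−. The summed counts gave 65.3 counts-per-million (CPM, exact Poisson interval 61.3 to 69.7) in FOS+ nuclei and 232 (225 to 241) in FOS− nuclei, which is 3.56-fold lower in FOS+. In the FOS+ group 1 nucleus held 54.5% of the *Grm2* counts, and without the leading nucleus of each group the log2 fold was -2.71 instead of -1.83. Within the 4 amplification conditions, which differ in template-switching oligonucleotide (TSO) concentration and in the dilution of the ERCC spike-in RNA, the direction was not uniform. At 1 µM TSO and a dilution of 1 to 200, *Grm2* was above 1 TPM in 3 of 10 FOS+ nuclei and 1 of 10 FOS− nuclei, the opposite order. It was found in 1 of 8 and 8 of 10 at 1 µM and 1 to 2000, in 6 of 11 and 8 of 10 at 10 µM and 1 to 200, and in 5 of 11 and 9 of 11 at 10 µM and 1 to 2000. The mean of the 4 differences, with equal weight, was -27.3 points. With nuclei limited to those with *Prox1* above 1 TPM, an alternative chosen after the data were seen, the shares were 39.4% of 33 and 76.5% of 34.

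*Grm5* was above 1 TPM in 26 of 40 FOS+ nuclei and 36 of 41 FOS− nuclei, a difference of -22.8 points. Among the nuclei above 1 TPM the median was 103 TPM in FOS+ and 98.2 TPM in FOS−. The summed counts, 263 CPM (254 to 271) against 378 (368 to 388), gave a 1.44-fold lower value in FOS+, short of a 2-fold limit. The difference in mean log2(TPM + 1), which gives weight to the nuclei without the transcript, was -1.65, and -2.36 with 0.1 in place of 1, both past that limit. The share was lower in FOS+ nuclei in all 4 amplification conditions, by 5 to 45.5 points. The difference was 10 points or less in both conditions with 1 µM TSO. In both conditions with 10 µM TSO all FOS− nuclei were above 1 TPM, against 8 of 11 and 6 of 11 FOS+ nuclei. Among nuclei with *Prox1* above 1 TPM the shares were 60.6% in FOS+ and 97.1% in FOS−.

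*Grm7* was above 1 TPM in 28 of 40 FOS+ nuclei and 30 of 41 FOS− nuclei, a difference of -3.17 points. The summed counts were 236 CPM (228 to 244) and 230 (222 to 238), a 1.02-fold difference. Within the amplification conditions the difference ran from -27.3 to 18.2 points. The intervals of the 2 shares overlap widely at these numbers of nuclei.

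**Figure D3:**
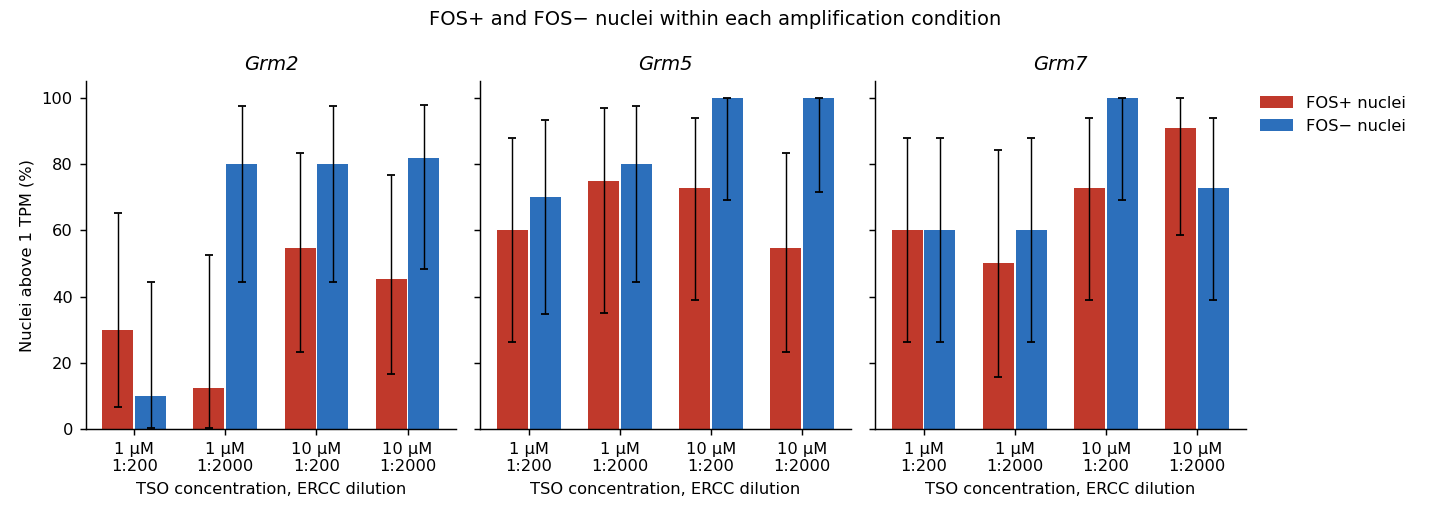
The horizontal axis gives the 4 amplification conditions, as TSO concentration and ERCC dilution, and the vertical axis the percent of nuclei above 1 TPM. Red bars are FOS+ nuclei, blue bars FOS− nuclei, and lines are 95% exact binomial intervals on 8 to 11 nuclei each. *Grm5* is lower in FOS+ in all 4 conditions, *Grm2* in 3 of them, and *Grm7* has no common order.

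*Grm3*, *Grm4* and *Grm8* were each above 1 TPM in 5 or fewer nuclei of either sort. *Grm3* was above 1 TPM in 2 FOS+ and 5 FOS− nuclei, but 1 FOS+ nucleus held 94.1% of that group's counts at 43.4 TPM, so its summed counts were 9.97-fold higher in FOS+ with it and the log2 fold was -0.36 without the leading nucleus of each group. *Grm8* was above 1 TPM in 2 nuclei of each sort, at 51.1 and 928 TPM in FOS+ and at 51.1 and 174 TPM in FOS−, and the summed counts were 11.3-fold higher in FOS+. Without the leading nuclei that log2 fold was 0.97 instead of 3.50. *Grm4* had 61.0 expected counts in 1 FOS+ nucleus, at 94.01 TPM, and 0.99 in 1 FOS− nucleus. By the 2-fold limit 2 of the 6 genes that passed the filter, *Grm3* and *Grm8*, were higher in FOS+ and 1, *Grm2*, was lower. Among 16393 genes 17.9% were 2-fold or more higher in FOS+ and 28.1% lower, so folds of this size were common. Scaling by TMM factors or by median-of-ratios size factors in place of the summed totals moved every log2 fold of this comparison up, by 0.25 or 0.19.

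*Grm6* was listed at 0 in every kept HC nucleus, PTZ cell and saline cell, and had low values in the NE nuclei. It was above 1 TPM in 16 of 40 FOS+ nuclei, or 40% (24.9 to 56.7), and in 11 of 41 FOS− nuclei, or 26.8% (14.2 to 42.9), and no nucleus exceeded 5.81 TPM in FOS+ or 17.97 TPM in FOS−. The highest expected count was 8.03 in FOS+ and 10.3 in FOS−. Of the nuclei with a count above 0, 13 of 17 in FOS+ and 10 of 13 in FOS− had a value that was not whole (tolerance 0.005), which occurs where the quantifier splits reads between features. After thinning to 50000 reads the expected share with a read was 12.7% in FOS+ and 10.0% in FOS−. With none of 23 HC nuclei above 1 TPM, 3 divided by the number of nuclei bounds the share at 13.04%, and the exact 95% interval at 14.8%. With none of 30 PTZ and 38 saline cells the same division gives 10.0% and 7.89%, and the exact upper bounds are 11.6% and 9.25%. The NE libraries were read as single ends of 50 bases and the others as paired ends of 100 bases. HC nuclei also differed in amplification platform, so read layout, platform and kind of sample cannot be told apart for this gene. The annotation places Gm12660 antisense over *Grm6* with 599 shared exonic bases, and 10.3% of the stretches of 50 bases in *Grm6* transcripts also occur in that gene, which was itself listed at 0 in every kept sample.

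Antisense genes also overlap *Grm2* and *Grm7*. *Grm2* shares 470 exonic bases with the antisense gene Gm28111, which was above 1 TPM in 1 FOS+ and 1 FOS− nucleus. *Grm7* shares 130 exonic bases with the antisense gene Gm20387, which was above 1 TPM in 65.0% of FOS+ and 51.2% of FOS− nuclei with summed counts of 57.98 and 395, against 3407 and 3216 for *Grm7*. In FOS− 1 nucleus held 86.9% of the Gm20387 counts, and the sum without it was 51.8. The counting is not stated to have used strand, so reads in the shared stretches of *Grm7* and Gm20387 cannot be told apart.

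The comparison of PTZ with saline whole cells addresses seizure against control injection. *Grm7* was found in fewer PTZ than saline cells, *Grm2* was found in fewer cells but at a higher level where present, and *Grm5* was similar. Each treatment was 1 pool of cells, so treatment and preparation cannot be told apart. Of 14492 genes that passed the filter in this table, 4.35% were lower in PTZ by 20 points or more and 3.12% higher. Of the 7 receptor genes 5 passed, *Grm4* and *Grm6* did not, and 1 of the 5, *Grm7*, was past the limit. The median difference was -5.44 points over the 5 and -0.70 over all genes tested. Here too the receptor genes were chosen with earlier results known, so the values of all genes are a background only.

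*Grm7* was above 1 TPM in 17 of 30 PTZ cells and 30 of 38 saline cells, a difference of -22.3 points. Its median where detected was 61.1 TPM in both groups. The summed counts were 74.2 CPM (71.7 to 76.9) and 112 (109 to 115), which is 1.51-fold lower in PTZ. The mean TPM, in which each cell has equal weight, gave a log2 ratio of 0.07, while the difference in mean log2(TPM + 1) was -1.17 and that in mean log2(TPM + 0.1) -1.93, both past the 2-fold limit. The share difference was -17.4 points after thinning to 50000 reads, -15.3 with all 35 and 47 cells, -19.6 at a limit of 5 TPM, and -31.1 among cells with a total at or above the lowest saline total, an alternative chosen after the data were seen that kept 23 PTZ cells. The first 3 of these are short of 20 points.

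*Grm2* was above 1 TPM in 24 of 30 PTZ cells and 37 of 38 saline cells, a difference of -17.4 points, inside the limit. Where detected, its median was 213 TPM in PTZ and 121 TPM in saline cells. The summed counts were 459 CPM (453 to 466) and 268 (263 to 273), which is 1.71-fold higher in PTZ. On the scale of mean log2(TPM + 1), which weights the cells without the transcript, the difference was -0.30, so the direction depends on the summary. The 6 PTZ cells at or under 1 TPM lie apart from the rest in the plot of levels, since the lowest *Grm2* value above 1 TPM in this group was 43.4 TPM. *Grm5* was above 1 TPM in 26 of 30 PTZ and 35 of 38 saline cells, with summed counts of 219 (214 to 223) and 231 (226 to 235) CPM.

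*Grm3*, the other group II receptor, was above 1 TPM in 7 of 30 PTZ cells (23.3%, 9.93 to 42.3) and 7 of 38 saline cells (18.4%, 7.74 to 34.3). Its highest value was 157 TPM in PTZ and 155 TPM in saline cells. The summed counts were 40.3 and 16.2 CPM, 2.48-fold higher in PTZ, and *Grm3* was the 1 gene of the 5 past the 2-fold limit. Among 14459 genes 13.2% were higher in PTZ by that limit and 13.9% lower. The log2 ratio of mean TPM for *Grm3* was 0.64, short of the limit. Summed TPM of 6 astrocyte markers ran from 0 to 4540 in PTZ cells (median 17.9) and from 0 to 200 in saline cells (median 13.04). Their part in the *Grm3* value was not tested. *Grm4* was above 1 TPM in 0 PTZ and 2 saline cells, the higher at 45.2 TPM, and *Grm8* in 1 PTZ and 3 saline cells, at most 48.5 and 102 TPM.

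*Grm2*, *Grm5* and *Grm7* were all above 1 TPM in 8 of 40 FOS+ nuclei (20%), 20 of 41 FOS− nuclei (48.8%), 6 of 23 HC nuclei (26.1%), 14 of 30 PTZ cells (46.7%) and 28 of 38 saline cells (73.7%). *Grm2* without *Grm5* was seen in 3 FOS+, 1 FOS−, 1 HC, 3 PTZ and 3 saline samples, while *Grm5* without *Grm2* was seen in 14, 11, 14, 5 and 1. *Grm5* had the higher share of these 2 genes in every group except saline cells, and no expectation from the shares was computed. Of the 7 genes a nucleus carried 2.25 ± 1.06 (SD over 40 nuclei) in FOS+ and 2.71 ± 1.10 (SD over 41 nuclei) in FOS−. The mean was 1.78 ± 0.85 in HC nuclei (SD over 23), 2.50 ± 0.94 in PTZ cells (SD over 30) and 3 ± 0.87 in saline cells (SD over 38). No sample carried more than 5 of the 7.

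**Figure D4:**
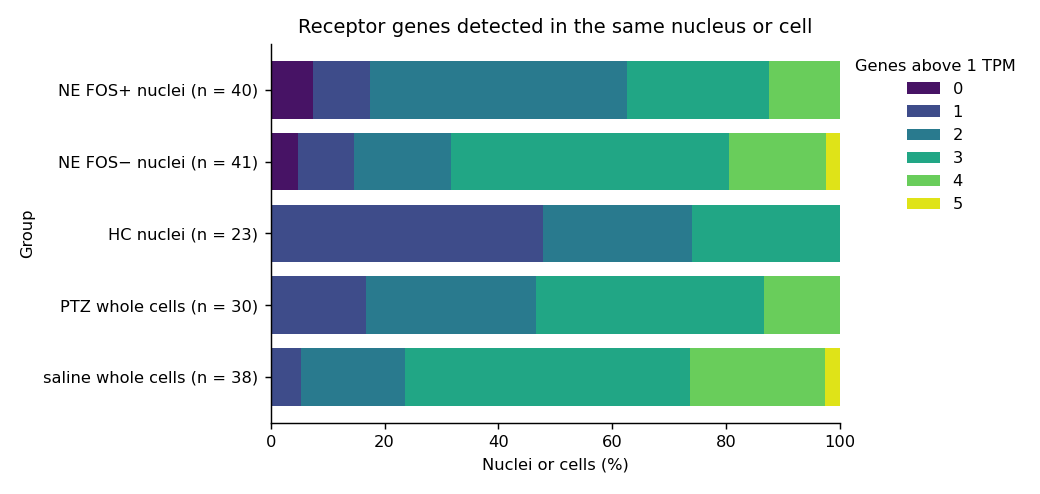
The horizontal axis is the percent of kept nuclei or cells and each row is a group. Colours give the number of the 7 genes above 1 TPM in the same nucleus or cell. FOS+ nuclei most often carried 2 genes (18 of 40), FOS− nuclei 3 (20 of 41), HC nuclei 1 (11 of 23) and saline cells 3 (19 of 38).

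The TPM of *Grm2* moved with the number of genes seen in a nucleus. Spearman's rho of its TPM with the number of genes above 1 TPM was 0.48 over 40 FOS+ nuclei, 0.57 over 41 FOS− nuclei and 0.63 over 23 HC nuclei, values that share a library and its amplification. Over 30 PTZ and 38 saline cells rho was 0.11 and -0.02. The median number of genes was 6326 in FOS+ and 6020 in FOS− nuclei, the mean 6185 and 6281, and the lowest 1373 and 3421. After thinning to 50000 reads the expected *Grm2* share was 26.9% in FOS+ and 58.4% in FOS− nuclei. *Grm5* gave rho of 0.38 and 0.19 in FOS+ and FOS− nuclei, and *Grm7* 0.14 and 0.00.

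Of the 14 listed genes that act with group I receptors, 13 passed the filter in the NE nuclei. Of these 13, 2 were higher and 2 lower in FOS+ by 20 points or more. Of all genes, 4.3% were higher and 3.69% lower, as given above. This list was chosen with earlier results of these data known, and the paper reports *Homer1* as higher in FOS+ nuclei. The counts therefore describe the listed genes only and do not test whether the list differs from all genes. *Homer1*, which encodes the scaffold that binds mGluR5 and whose short form is an immediate early gene product, was above 1 TPM in 92.5% of FOS+ and 53.7% of FOS− nuclei, with medians of 320 and 1.35 TPM. *Grasp*, the gene of the scaffold tamalin, was above 1 TPM in 65.0% and 29.3%. *Itpr1*, the endoplasmic reticulum inositol trisphosphate receptor, was above 1 TPM in 57.5% of FOS+ and 78.0% of FOS− nuclei. *Dagla*, the enzyme that makes the endocannabinoid 2-AG downstream of these receptors, was above 1 TPM in 35% and 58.5%. The highest share of this list in FOS+ nuclei was that of *Ncdn* (97.5%) and the lowest that of *Plcb3*, listed at 0 in all NE nuclei kept. In whole cells 2 of the 13 passing genes were past the limit, both lower in PTZ, beside the 4.35% lower and 3.12% higher of all genes. *Homer1* was above 1 TPM in 26.7% of PTZ and 52.6% of saline cells, and *Gna11*, a Gq-family alpha subunit, in 53.3% and 76.3%.

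None of the 13 genes of the Gi/o pathway list was past the share limit between FOS+ and FOS− nuclei, beside 4.3% higher and 3.69% lower of all genes, and their median difference was -4.51 points. *Adcy1*, a calcium-stimulated adenylyl cyclase, had the highest share of the list in FOS+ nuclei, at 85.0%, and 87.8% in FOS−. *Adcy5* and *Gnai3* had the lowest, at 10.0% each. In whole cells 1 of the 13 was past the limit, lower in PTZ, where 4.35% of all genes were lower and 3.12% higher. *Kcnj9*, a subunit of G-protein-gated potassium channels, was above 1 TPM in 56.7% of PTZ and 81.6% of saline cells. Of the 8 interactors 1 was past the limit in NE nuclei, higher in FOS+, beside the same 4.3% of all genes. *Siah1a*, a ubiquitin ligase that binds group I receptors, was above 1 TPM in 32.5% of FOS+ and 9.76% of FOS− nuclei. *Pick1*, a PDZ protein that binds mGluR7, had the highest share of its list in FOS+ nuclei (90.0%) and *Elfn2* the lowest (17.5%). None of the 7 interactors that passed the filter in whole cells was past the limit, beside the same 4.35% lower and 3.12% higher. Both lists were chosen with earlier results of these data known, so these counts describe the listed genes only.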

How the data were processed

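Single-nucleus and single-cell RNA-seq tables of 201 samples were used, in 3 pairs made separately for whole cells, NE nuclei and HC nuclei. The authors made expected counts and TPM per gene symbol, and the deposited expected counts and TPM were used as given. The submitters' processing notes name RSEM and Bowtie 1.0.0 with GRCm38, and the RSEM version is not given in the sources used here. No deposited column was left without a sample (0 columns). Samples were kept with a total above 50000 and, outside HC nuclei, genes above 1 TPM over the table mean minus 2 SD. All 23 HC nuclei were kept. The paper also required ERCC estimates to correlate with their expected concentrations, which was not applied here. The numbers of FOS+ nuclei, FOS− nuclei and PTZ cells kept differ from those in the paper. No 2 columns were identical.

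The share above 1 TPM was given with an exact Clopper-Pearson 95% interval, and expected counts were summed per group, divided by the summed totals and given an exact Poisson interval on the rounded sum. PCR reads carry no molecular identifiers, so intervals cover counting error only. Gene folds used sums no lower than 3 counts. Limits of size were 20 percentage points and 2-fold, over genes counted (rounded above 0) in 5 or more samples of the comparison. Thinned shares are the hypergeometric expectation of at least 1 read among 50000. Because no label names an animal, no test was run, and the spread between nuclei is not that between animals. The fold of summed counts was tested on simulated Poisson counts, and the thinned share on drawn reads. The share above 1 TPM was not simulated. Python 3.11.15, numpy 2.4.6, pandas 2.3.3, scipy 1.17.1, matplotlib 3.10.9 and R 4.3.3 with edgeR 4.0.16 (TMM factors only) and DESeq2 1.42.0 (size factors only) were used. The genes and the partner and marker lists were chosen with earlier results of these data known. Partners were named where the share differed by 20 points or more, or as the highest or lowest of their list. For the receptor gene with the highest share over whole cells and NE nuclei, the 5 genes with the highest smaller Spearman rho were named. Alternatives changed the limit of detection, depth, scaling, samples, filter and amplification condition. Nuclei that the study set aside within the FOS+ sort carry no label and stayed among the FOS+ nuclei.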

Additional observations from a re-analysis of the deposited data

How the results depend on the processing

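All counts below are of receptor genes past a limit, and none of the results carries a test. No paired analysis was possible because the shared numbers name wells and not animals, and no result comes from a test. Between FOS+ and FOS− nuclei, 2 genes were past 20 points, and 4 were in nuclei made with 10 µM TSO and ERCC at 1 to 200. At 1 µM TSO and either dilution the 2 genes past the limit were *Grm2* and *Grm3*. *Grm2* kept a lower share in FOS+ under 10 of 11 alternatives and was 20 points higher at 1 µM TSO and 1 to 200. *Grm5* kept its direction under all 11, with 9 past the limit. By fold, 3 genes were past the limit, 4 with no filter, and the count was 1 without the leading sample of each group or with genes counted in at least 20 samples. In mean log2(TPM + 1) and in mean log2(TPM + 0.1) the count was 2, and the genes were *Grm2* and *Grm5*. *Grm3* changed direction in mean log2(TPM + 1) at -0.038, in mean log2(TPM + 0.1) at -0.22 and without the leading samples at -0.36. Between PTZ and saline cells the 1 gene past 20 points became 0 at a limit of 5 TPM, with all samples and after thinning. The 1 gene past 2-fold, *Grm3*, became 2 genes without the leading samples or with no filter, and 0 with the filter at 20 samples. Under some summaries the count stayed at 1 but the gene changed. It was *Grm8* by the ratio of mean TPM (log2 -1.55). It was *Grm7* in mean log2(TPM + 1) (-1.17) and in mean log2(TPM + 0.1) (-1.93). In HC nuclei 2 genes were found in at least 50% of nuclei, and 1 at a count of at least 5 or after thinning. Leaving out the HC nucleus under the limit on genes left that count at 2. The fewest reads, 63775 in NE and 67212 in whole cells, make 3 counts worth 47.04 and 44.6 CPM, so low values of the rare genes were not detectable there. Causes were not tested.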

Other observations

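Among the 7 genes *Grm5* had the highest share over the kept whole cells and NE nuclei together (82.6%). Over 7078 genes, those with TPM values ordered most like those of *Grm5* were *Klhl22*, with Spearman's rho of 0.34 over 68 whole cells and 0.35 over 81 NE nuclei, *Tmx2* (0.32 and 0.32), *Mpdz* (0.32 and 0.31), *Rufy2* (0.36 and 0.30) and *Rab26* (0.44 and 0.30). These values are weak, they were picked as the highest of all genes compared, and the points share their libraries and amplification.

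*Grm7* and *Grm2* moved together in HC nuclei, with rho of 0.62 over 23 nuclei, while rho was 0.18 over 40 FOS+ and -0.04 over 41 FOS− nuclei. In the same HC nuclei the TPM of *Grm2* and *Grm7* gave rho of 0.48 and 0.64 with the summed count of the nucleus, and *Grm5* gave -0.20.

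The 7 granule cell markers had a summed level of 1388 to 16385 TPM in FOS+ nuclei (median 4366) and of 1794 to 25494 TPM in FOS− nuclei (median 6463). The 6 inhibitory neuron markers had medians of 26.3 and 1.22 TPM in these 2 groups, with highest values of 1360 and 5822 TPM, and 2 and 1 of the 6 were listed at 0. Singly they went different ways. Gad1 (47.5% and 36.6% above 1 TPM) and Gad2 (35% and 17.1%) were found in more FOS+ nuclei. Slc32a1 (0% and 4.88%) and Sst (10% and 12.2%) were found in fewer, Vip was similar (7.5% and 7.32%) and Pvalb was at 0% in both. The 6 astrocyte markers had medians of 15.3 and 30.4 TPM, the 6 oligodendrocyte lineage markers 29.4 and 24.8, the 6 CA pyramidal or mossy cell markers 28.5 and 34.96, the 4 microglia markers 4.25 and 4.88, and the 3 endothelial markers 0 and 0. Their part in the differences between FOS+ and FOS− nuclei was not tested.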
